A study of Saccharomyces cerevisiae with 44 samples.

Results

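Chromatin binding of 3xFLAG-Dbf4 and of 3xFLAG-Dbf4-Zn*1 was profiled across the whole genome of budding yeast cells held in G1 phase, in 4 of the 44 samples of the series. The 4 samples were taken by their genotype labels, FLAG-Dbf4 (2 libraries) and FLAG-dbf4-aaHH (2 libraries). The other 40 samples measure DNA replication by BrdU incorporation (QBU). They were used here only to place replication origins, over all QBU genotypes, and to give the level of unselected DNA (WT Total). That DNA comes from WT cells released from α-factor into 200 mM hydroxyurea for 60 min, so it is not a G1 level. All 4 ChIP samples come from MATa bar1∆ cells of the W303 background that carry a 3xFLAG epitope at the N-terminus of Dbf4, grown at 23 °C and arrested with α-factor for about 3 h. Chromatin was cross-linked with formaldehyde and precipitated with the FLAG antibody M2. Both genotypes also carry an insertion at ADE2, given as ADE2::FLOPv2x2 in the strain list. Zn*1 changes both cysteines of the CCHH zinc-finger motif to alanine at the DBF4 locus itself, with no marker left behind. Each genotype is a single isolate, and both isolates came from the same parent strain. The labels and the study's strain list attach the 2 strain numbers to the alleles in opposite ways, and the files hold no bases from which the substitution could be read, so the groups are those of the genotype labels. No source says that the replicates were separate cultures, so p-values measure the spread between these libraries, which may be technical. No input or untagged library was used here, so a level reports recovered DNA and not specific binding.

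Dbf4 is the regulatory subunit of the Cdc7 kinase (DDK), which phosphorylates the Mcm2-7 helicase and so triggers the firing of an origin. Dbf4 is limiting for origin firing, and the kinetochore protein Ctf19 is known to bring it to centromeres (CENs), while Fkh1 and Fkh2 bring it to another group of origins. The zinc finger lies in the C-terminal part of Dbf4. ChIP-seq with a tagged protein recovers DNA cross-linked to it, and transcribed and repeated sequences are commonly recovered in such experiments as well.

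Binding was measured as the number of read-pair midpoints in 500-bp tiles of chromosomes 1 to 16. The level is that number divided by the library's mean tile outside chromosome 12, 450 to 490 kb, where the ribosomal DNA (rDNA) lies. The libraries held 2127485 and 1881456 read pairs for Dbf4 and 1996559 and 1959751 for Dbf4-Zn*1. Outside the rDNA, 1049226 and 620665 pairs remained for Dbf4 and 890451 and 766022 for Dbf4-Zn*1, so the median tile held 40, 23, 34 and 29 pairs. Fragments of the first Dbf4-Zn*1 library were longer, with a median of 288 bp against 246 to 252 bp in the other 3 libraries. BAR1, the gene of the protease that degrades α-factor and is deleted in this background, held 0 pairs in all 4 libraries. The DBF4 gene itself was at 1.08 and 0.90 times the mean tile in Dbf4 and at 0.85 and 1.01 in Dbf4-Zn*1. Across 23884 tiles, Pearson's r between libraries was 0.83 for the Dbf4 pair, 0.83 for the Dbf4-Zn*1 pair and 0.79 to 0.83 across genotypes, a description over tiles that share base composition and annotation. Over all tiles, the genotypes thus resembled each other about as much as replicates did.

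The first question was where Dbf4 and Dbf4-Zn*1 bind differently. Counts were fitted with edgeR's quasi-likelihood test and p-values were adjusted over all 23885 tiles with a mean of at least 10 pairs. In Dbf4-Zn*1, 15 tiles were lower (0.0628% of those tested) and 3 were higher (0.0126%) at an adjusted p under 0.05. The median log2 difference over all tiles was 0.01. Without an adjustment, 635 tiles (2.66%) were lower and 739 (3.09%) higher at p under 0.05. Of the 15 lower tiles, 14 had their centre within 1 kb of a CEN middle, where 64 tiles were tested. They lay at 11 of the 16 CENs. In the plot of tile differences against level, these 14 tiles have negative differences, while other tiles near CENs lie within the cloud. Most of the 635 tiles that were lower without an adjustment lay elsewhere, since only 64 tiles were tested near CENs.

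**Figure D1:**
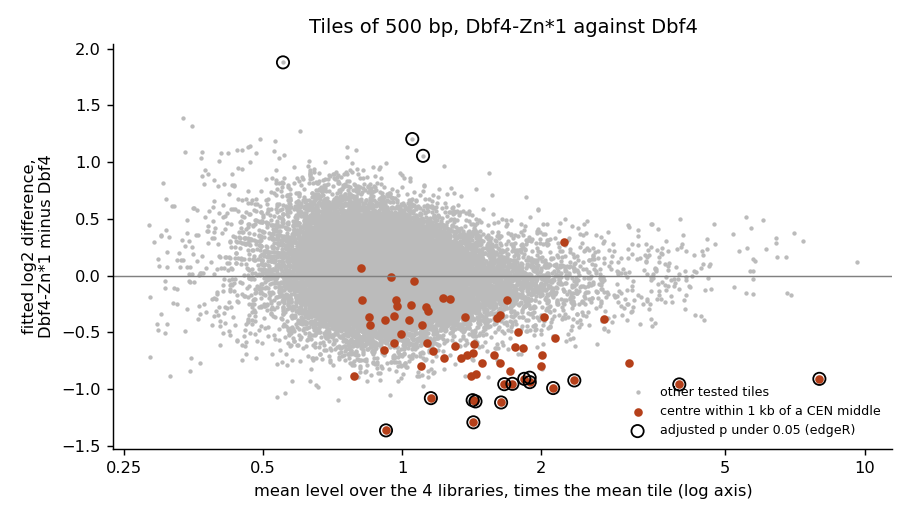
Each point is a 500-bp tile, with the mean level over the 4 libraries in multiples of the mean tile on a log axis and the fitted log2 difference of Dbf4-Zn*1 minus Dbf4 on the other axis. Tiles with a centre within 1 kb of a CEN middle are red, and the 18 tiles with an adjusted p under 0.05 are circled, 14 of them red and below 0. The tile at the edge of the rDNA is not drawn.

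CENs are the assembly sites of the kinetochore, which sits on a single nucleosome in this species. Each was placed midway between its neighbouring genes, which stand 630 to 2541 bp apart, since no annotated CEN positions were used. Over the 16 CEN tiles, the median level was 2.33 and 1.78 in the Dbf4 libraries and 1.08 and 1.30 in the Dbf4-Zn*1 libraries. Both Dbf4-Zn*1 libraries lay below both Dbf4 libraries at 14 CENs, against 16.0% of all tiles tested. The fitted log2 difference was below 0 at all 16 CENs, from -1.36 at CEN12 to -0.35 at CEN16, with a median of -0.87 against 0.01 over all tiles. The tiles of 8 CENs were called lower, those of CEN1, CEN4, CEN6, CEN7, CEN8, CEN11, CEN12 and CEN13. At an unadjusted p under 0.05, 14 were lower. Which CENs were called depends on where the tile lies. With tiles shifted by 250 bp, 6 were called. CEN1, CEN6 and CEN11 lost the call (edgeR adjusted p 0.0717, 0.497 and 0.0717), and CEN10 gained one (0.0093). With tiles of 1000 bp, 11 were called. At a mapping quality of at least 30, 7 were called, and CEN6 lost its call (0.0864).

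**Figure D2:**
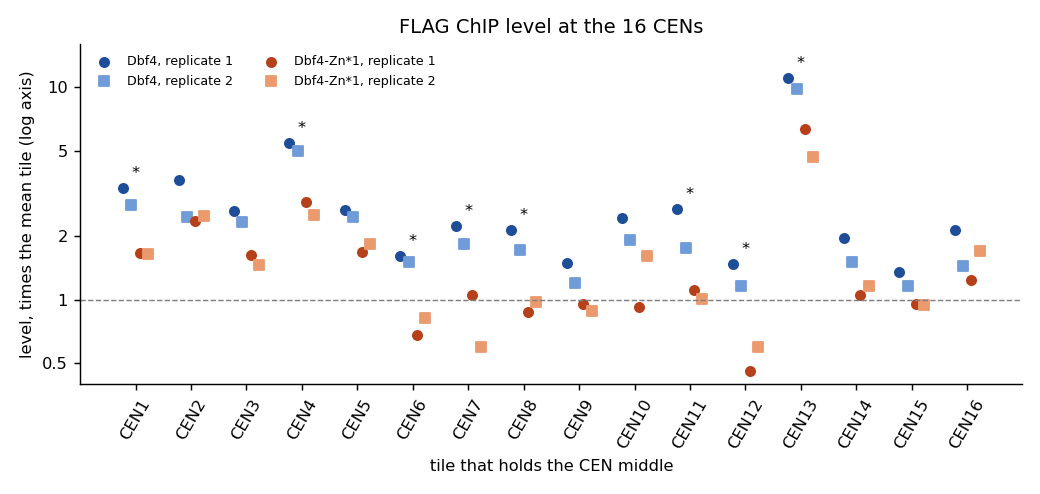
Level in the 500-bp tile that holds each CEN middle, in multiples of the library's mean tile on a log axis, with one marker per library and the mean tile as a dashed line. Asterisks mark the 8 CENs with an adjusted p under 0.05, and at 14 of 16 CENs both Dbf4-Zn*1 markers (red, orange) lie below both Dbf4 markers (blue).

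CEN13, on chr13:268001-268500 between YPT7 and CDC5, was the highest CEN. By the mean over the 4 libraries, which pools both genotypes, it was the second highest tile outside the rDNA and its edge. Its levels were 11.04 and 9.81 in Dbf4 and 6.38 and 4.71 in Dbf4-Zn*1. The log2 difference was -0.91 ± 0.19 (SE), with an adjusted p of 0.00464 by edgeR, so CEN13 had less signal in Dbf4-Zn*1 and was the highest CEN tile in both genotypes. In the 500 bp centred on the middle between its neighbouring genes it stood at 5.39 and 5.24 in Dbf4 and 2.76 and 2.51 in Dbf4-Zn*1, about level with CEN4, so its rank depends on where the window lies. The unselected DNA of WT cells in QBU was also above its mean in this tile, at 1.53, and its part in the high level was not tested. CEN4, on chr4:449501-450000 between RMD1 and NTH1, followed with 5.48 and 5.00 in Dbf4 and 2.89 and 2.51 in Dbf4-Zn*1 (log2 difference -0.96 ± 0.19, edgeR adjusted p 0.00464). The WT Total level there was 0.96. CEN1, on chr1:151501-152000 between TFC3 and NUP60, had 3.35 and 2.79 in Dbf4 and 1.65 and 1.63 in Dbf4-Zn*1, groups that did not overlap.

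At the other called CENs the Dbf4-Zn*1 level was close to or below that of the mean tile. CEN7 (chr7:496501-497000) had levels of 2.23 and 1.82 in Dbf4 and 1.05 and 0.60 in Dbf4-Zn*1, the lowest p of all tiles (edgeR adjusted p 0.00105). CEN11 (chr11:439501-440000) had levels of 2.68 and 1.75 in Dbf4 and 1.11 and 1.01 in Dbf4-Zn*1. CEN8 (chr8:105501-106000) had levels of 2.13 and 1.71 in Dbf4 and 0.87 and 0.97 in Dbf4-Zn*1. In each of these the groups did not overlap. CEN6 (chr6:148501-149000) had levels of 1.61 and 1.51 in Dbf4 and 0.68 and 0.82 in Dbf4-Zn*1. CEN12 (chr12:150501-151000) was low in both genotypes, with levels of 1.47 and 1.16 in Dbf4 and 0.46 and 0.60 in Dbf4-Zn*1, and had the largest fitted difference of the CENs (-1.36 ± 0.28).

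The remaining 8 CEN tiles were not called. CEN3, CEN5, CEN9, CEN10, CEN14 and CEN15 did not overlap between genotypes, with Dbf4 levels from 1.16 to 2.64 and Dbf4-Zn*1 levels from 0.88 to 1.82. CEN10 came closest, with 2.43 and 1.90 in Dbf4 and 0.92 and 1.60 in Dbf4-Zn*1 (edgeR adjusted p 0.121). CEN2 had levels of 3.67 and 2.44 in Dbf4 and 2.35 and 2.48 in Dbf4-Zn*1, so the second replicates were alike and the groups overlapped. CEN16 had levels of 2.13 and 1.44 in Dbf4 and 1.24 and 1.70 in Dbf4-Zn*1, and its groups overlapped as well. In windows of 500 bp centred on the CEN middle, both Dbf4-Zn*1 libraries lay below both Dbf4 libraries at 13 CENs, with a median ratio of 0.56, and CEN9 overlapped as well. In windows of 2 kb around the CEN middle, a size chosen after the tile values were seen, both Dbf4-Zn*1 libraries lay below both Dbf4 libraries at all 16 CENs, and the median ratio of Dbf4-Zn*1 to Dbf4 was 0.63.

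The difference was narrow along the chromosome. Averaged over the 16 CENs in 100-bp steps, the level within 500 bp was 2.64 and 2.20 in Dbf4 and 1.48 and 1.42 in Dbf4-Zn*1. From 500 to 1000 bp it was 1.55 and 1.32 against 1.06 and 1.09. From 1 to 2 kb it was 1.00 and 0.91 against 0.83 and 0.84, and from 2 to 5 kb, 0.94 and 0.84 against 0.91 and 0.88, where the genotypes overlapped. Set against its own flank from 5 to 10 kb, the CEN was 3.04 and 2.86 times higher in Dbf4 and still 1.77 and 1.68 times higher in Dbf4-Zn*1. The profile also shows a peak about 3 kb to the left of the CENs in all 4 libraries. MRP17, a mitochondrial ribosomal protein gene near CEN11, is 1 of the genes there, at 5.16 and 5.00 in Dbf4 and 5.09 and 4.09 in Dbf4-Zn*1. The peak is a mean over 16 CENs, and the part of each in it was not tested.

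**Figure D3:**
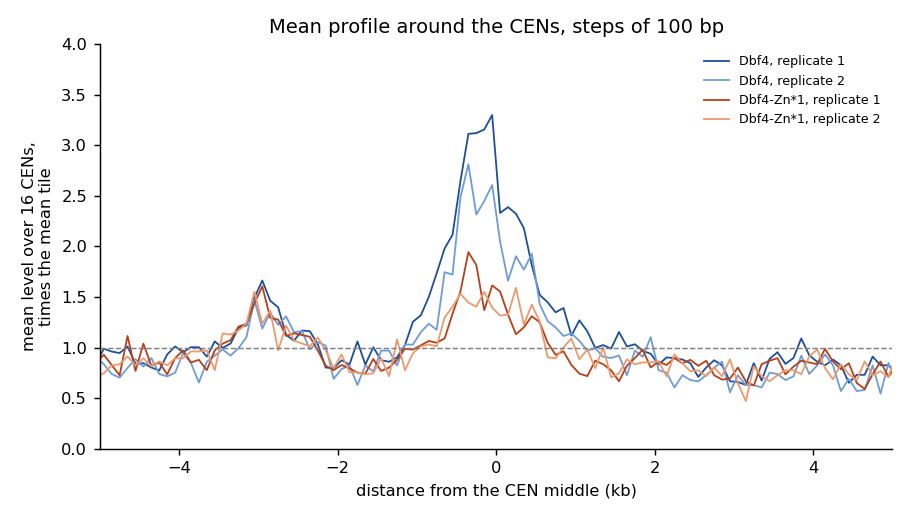
Mean level over the 16 CENs in steps of 100 bp, by distance from the CEN middle in kb, with one line per library in multiples of the mean tile. The 2 blue Dbf4 lines reach 3.30 and 2.81 and the red and orange Dbf4-Zn*1 lines 1.94 and 1.59, and all 4 run together beyond 2 kb and at the peak 3 kb to the left.

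Called tiles beside the CEN tile itself overlapped genes that flank the CENs. They overlapped DOM34, a factor that releases stalled ribosomes, next to CEN14, and DEG1, a tRNA pseudouridine synthase, next to CEN6. Others overlapped VPS1, a dynamin-like GTPase, next to CEN11, and RRP6, a nuclease of the nuclear exosome, next to CEN15. The last overlapped AVT1, a vacuolar amino acid transporter, next to CEN10. Some of these tiles also reach into the stretch between the flanking genes, so they may hold the CEN itself. At CEN15 that stretch is 701 bp long, and the called tile has its centre 269 bp from the middle. The tile in DOM34 (chr14:628001-628500) had levels of 2.39 and 1.51 in Dbf4 and 1.11 and 0.75 in Dbf4-Zn*1. The tile in DEG1 (chr6:148001-148500) had levels of 3.10 and 2.52 in Dbf4 and 1.54 and 1.32 in Dbf4-Zn*1. In both the groups were separate, and the tiles over VPS1, RRP6 and AVT1 had log2 differences of -0.94, -0.95 and -0.96. With tiles shifted by 250 bp, those over VPS1 (-0.75) and AVT1 (-0.64) were no longer called. CEN10, CEN14 and CEN15 were thus represented among the lower tiles although the tile of their middle was not called.

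The single lower tile away from CENs was at chr12:389501-390000 in YPS3, which encodes an aspartic protease of the cell surface. It had levels of 2.36 and 2.56 in Dbf4 and 1.27 and 1.35 in Dbf4-Zn*1 (log2 difference -0.90 ± 0.22, edgeR adjusted p 0.0414). Over the whole YPS3 gene the levels were 2.17 and 2.13 in Dbf4 and 1.49 and 1.62 in Dbf4-Zn*1, which did not pass the test over genes (edgeR adjusted p 0.176). The tile lost its call when tiles were shifted by 250 bp (log2 difference -0.54, edgeR adjusted p 0.677) or were 1000 bp long (-0.62, 0.0894). The 3 higher tiles were all low to average in level. At chr2:45001-45500, between ROX3, a Mediator subunit gene, and RPL32, a ribosomal protein gene, the levels were 0.21 and 0.27 in Dbf4 and 0.76 and 0.97 in Dbf4-Zn*1, on 9, 7, 28 and 31 pairs (log2 difference 1.88 ± 0.39, edgeR adjusted p 0.00589). This tile was thus depleted in Dbf4 and near the median tile in Dbf4-Zn*1. At chr16:147501-148000 in CBP3, an assembly factor of the mitochondrial respiratory chain, the levels were 0.73 and 0.50 in Dbf4 and 1.68 and 1.29 in Dbf4-Zn*1. At chr4:1023501-1024000 in MRX10, a mitochondrial protein gene, the levels were 0.78 and 0.62 in Dbf4 and 1.24 and 1.79 in Dbf4-Zn*1. The groups were separate in each. These calls depend on where the tile lies. With tiles shifted by 250 bp the 3 log2 differences were 0.64, 0.32 and 0.72, and with tiles of 1000 bp 0.53, 0.75 and 0.73, in place of 1.88, 1.20 and 1.05, and none was called.

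These calls rest on few libraries. Without Dbf4 replicate 1 or without Dbf4-Zn*1 replicate 2, 0 tiles were lower at the threshold, without Dbf4-Zn*1 replicate 1 only 1, and without Dbf4 replicate 2, 17, where the lone library left in a group was assumed to vary like the others. DESeq2 called 0 tiles, with 94 at an unadjusted p under 0.05, 10 of the CEN tiles among them. The median log2 difference of the CEN tiles lay between -0.98 and -0.67 in the 4 fits that leave out a library.

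Apart from CEN13, the highest levels outside the rDNA were away from CENs. The 10 highest regions beyond 2 kb from a CEN, which were chosen by their mean level over the 4 libraries, had mean levels of 6.11 to 9.63 and spanned 1 to 3 tiles each. None was called between genotypes, with log2 differences of -0.17 to 0.38 and edgeR adjusted p of 0.853 or more. The highest was at chr12:342501-343000, over ERG27, a sterol reductase gene, and APC9, a subunit gene of the anaphase-promoting complex, with levels of 8.76 and 9.77 in Dbf4 and 11.17 and 8.83 in Dbf4-Zn*1. The next was in MCH4 (chr15:94501-95000), which encodes a protein like monocarboxylate permeases, with levels of 7.07 and 6.05 in Dbf4 and 8.38 and 7.95 in Dbf4-Zn*1. The third lay over YBL044W and ECM13 (chr2:136001-137000), with 6.63 and 5.59 in Dbf4 and 8.76 and 7.20 in Dbf4-Zn*1 in its highest tile. The groups overlapped in the first of these and not in the others, and neither of the latter passed the test.

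Of the 10 regions, both Dbf4-Zn*1 libraries lay above both Dbf4 libraries in 5, and below them in 1. Of all tiles tested, 18.6% lay above and 16.0% below in this way. The latter was ITR1. ITR1, the myo-inositol transporter gene (chr4:1445001-1445500), had levels of 7.07 and 7.64 in Dbf4 and 6.41 and 6.63 in Dbf4-Zn*1. The tile between HIT1, a gene for assembly of small nucleolar RNPs, and the tRNA gene YNCJ0026W (chr10:539501-540000) had levels of 8.33 and 5.90 in Dbf4 and 6.54 and 6.44 in Dbf4-Zn*1. XDJ1, a DnaJ-like chaperone gene, with GEP5, the stretch between YLR012C and GAT3, and MZM1 with RSM28, both of mitochondrial function, were higher in both Dbf4-Zn*1 libraries, at 6.16 to 7.54 against 5.35 to 6.59 in Dbf4. Both remaining regions lie around ADE2 on chromosome 15, at 5.04 to 8.38. The aligned reads run along 1982 more bases of chromosome 15 than the QBU files have, and the break fell between RGA1 and the ADE2 region, so the position of ADE2 in the ChIP files could not be fixed and its levels are those of the region. Over the 10 regions, the WT Total level was 0.67 to 1.53, and 61.2% to 94.8% of pairs in their highest tile had both ends at a mapping quality of 30 or more. In the strain list the WT strain of QBU does not carry the insertion at ADE2. WT Total therefore gives no copy number for the ChIP strains around ADE2, and copy number there was not tested.

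The rDNA, a tandem array on chromosome 12 that encodes the ribosomal RNAs and holds an origin in each repeat, took most of the recovered DNA. It held 50.7% and 67.0% of all pairs in Dbf4 and 55.4% and 60.9% in Dbf4-Zn*1. The second Dbf4 library was highest and the first lowest, so the genotypes overlapped. In 35 tiles of the repeat units, the median level was 769 and 1554 in Dbf4 and 904 and 1157 in Dbf4-Zn*1. The same tiles were at a median of 81 and 83 in the WT Total libraries of QBU, which come from another experiment and from cells in hydroxyurea. Divided tile by tile by that level, they stood at 9.27 and 18.9 in Dbf4 and 10.9 and 13.9 in Dbf4-Zn*1. Only 2.88% to 3.38% of rDNA pairs had a mapping quality of at least 30 at both ends, against 82.7% to 83.7% elsewhere. Sizes of the array in these 2 isolates were not measured apart from these reads, and copy number and recovery per copy cannot be told apart here. The tile just right of the stretch left out, at chr12:490001-490500, was at 277 and 588 in Dbf4 and 262 and 387 in Dbf4-Zn*1.

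The unique DNA on both sides of the array was also above the mean tile over a long distance. Within 10 kb to the left, the median level was 2.48 and 2.91 in Dbf4 and 2.73 and 2.61 in Dbf4-Zn*1, and within 10 kb to the right 1.74 and 2.23 in Dbf4 and 2.10 and 1.82 in Dbf4-Zn*1. From 20 to 50 kb it was 1.47 and 1.88 against 1.60 and 1.59 on the left and 1.43 and 1.86 against 1.55 and 1.57 on the right. From 100 to 150 kb it was still 1.17 to 1.32 on the left and 1.19 to 1.34 on the right. By 250 to 300 kb it was 0.81 to 0.87 on the left and 1.07 to 1.16 on the right. The WT Total libraries were at 0.91 to 1.06 over all these steps. Within the nearest 50 kb on each side, the second Dbf4 library, which also had the most rDNA, was the highest of the 4, and the genotypes did not separate (median log2 differences of -0.08 to -0.03). The part of the rDNA share in these levels was not tested.

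**Figure D4:**
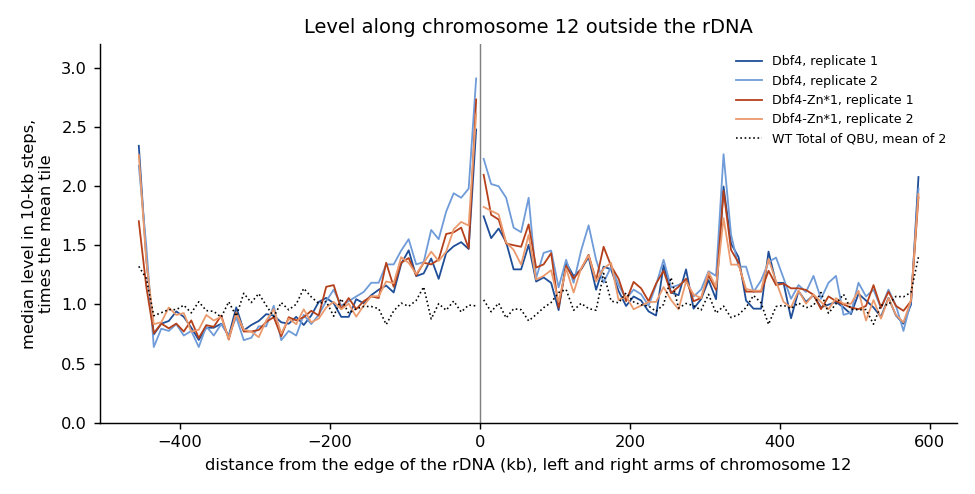
Median level in 10-kb steps along chromosome 12, by distance in kb from the left or the right edge of the rDNA, in multiples of the mean tile, with one line per ChIP library and a dotted line for the mean of both WT Total libraries of QBU. All 4 ChIP lines rise toward the rDNA from about 200 kb on the left, to between 2.48 and 2.91 in the nearest step, while the dotted line stays near 1.

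A second rise on this arm, about 325 kb to the right of the rDNA, had step medians of 2.00, 2.27, 1.96 and 1.73 in the 4 libraries. It lies over FKS1, which encodes a glucan synthase of the cell wall, at 2.57 and 2.83 in Dbf4 and 2.36 and 2.23 in Dbf4-Zn*1. FKS1 was lower in both Dbf4-Zn*1 libraries but did not pass the test (edgeR adjusted p 0.798).

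Across whole chromosomes the median level followed the same order in every library at its ends. Chromosome 1 was lowest, at 0.83 and 0.70 in Dbf4 and 0.76 and 0.79 in Dbf4-Zn*1. Chromosome 12 without the rDNA was highest, at 1.08 and 1.16 in Dbf4 and 1.11 and 1.10 in Dbf4-Zn*1. On the other 15 chromosomes, beyond 2 kb from the CEN, the level was lowest, or tied for lowest, 20 to 50 kb from the CEN (0.83 and 0.74 in Dbf4, 0.78 and 0.82 in Dbf4-Zn*1). It was highest beyond 400 kb (1.01 and 1.05 in Dbf4, 1.03 and 1.01 in Dbf4-Zn*1), while WT Total was 0.98 to 0.99 in both places. The second Dbf4 library had the widest range of the 4 in these bands, and the genotypes differed by a median log2 of at most 0.04 beyond 2 kb from the CEN.

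Chromosome ends, which carry the silenced subtelomeric repeats, were above the median tile over the last few kb. On chromosomes other than 12, the median level in the outermost 2 kb was 1.22 and 1.20 in Dbf4 and 1.18 and 1.21 in Dbf4-Zn*1, beside 1.15 and 1.14 in WT Total. From 2 to 5 kb it was 1.11 and 1.18 in Dbf4 and 0.99 and 1.07 in Dbf4-Zn*1, with WT Total at 1.07. The genotypes did not overlap in this band but did in the outermost 2 kb. From 5 to 10 kb the level was 0.81 to 0.87. Within 20 kb of an end, 0 of 1172 tested tiles were called. At an unadjusted p under 0.05, 58 were lower (4.95%, against 2.66% of all tiles) and 25 higher (2.13%, against 3.09%). YRF1-1, a helicase gene of the Y' repeats, had levels of 2.42 and 2.43 in Dbf4 and 1.78 and 2.05 in Dbf4-Zn*1 (edgeR adjusted p 0.184), and its reads can be shared among near-identical copies. The silent mating loci HML and HMR, 4 tiles in all, had median levels of 0.72 and 0.91 in Dbf4 and 0.62 and 0.71 in Dbf4-Zn*1, with 0 called. HMRA1 was the highest of their genes, at 1.63 and 1.31 in Dbf4 and 1.58 and 1.32 in Dbf4-Zn*1, but its sequence also occurs at MAT in MATa cells.

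Replication origins were placed at 300 peaks of the mean QBU profile, of which 32 are the nearest to a CEN on each side. The tiles of the 32 CEN-proximal origins had median levels of 0.80 and 0.70 in Dbf4 and 0.76 and 0.75 in Dbf4-Zn*1. The tiles of the 268 other origins had median levels of 0.98 and 0.89 in Dbf4 and 0.97 and 0.99 in Dbf4-Zn*1, beside 0.92, 0.89, 0.92 and 0.91 for all tiles. CEN-proximal origins were thus below the level of all tiles in all 4 libraries and the others at or slightly above it. The genotypes overlapped in both groups of origins. DNA near CENs was low in general in the bands of the chromosome arms described above. Tiles 10 to 20 kb from the CEN had medians of 0.83 and 0.74 in Dbf4 and 0.81 and 0.83 in Dbf4-Zn*1. From 20 to 50 kb the medians were 0.83 and 0.74 in Dbf4 and 0.78 and 0.82 in Dbf4-Zn*1. CEN-proximal origins were below these bands by less than below all tiles, and that difference was not tested. By edgeR, 0 of the 32 CEN-proximal and 0 of the 265 other origin tiles tested were called in either direction. At an unadjusted p under 0.05, 0 and 7 of them were lower and 2 and 9 higher. For the other origins these are 2.64% lower and 3.4% higher, close to the 2.66% and 3.09% of all tiles. A peak of BrdU need not sit on the origin's own 500 bp, so a narrow signal beside it would be missed.

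The lists of glycolytic and ribosomal protein genes, which growing cells transcribe at high rates, had higher median levels than all genes in both genotypes. The glycolytic genes (13) had a median level over the gene of 1.88 and 2.03 in Dbf4 and 1.92 and 1.86 in Dbf4-Zn*1, against 0.97, 0.96, 0.96 and 0.97 over all genes. PDC1, the pyruvate decarboxylase gene, was the highest, at 3.18 and 3.44 in Dbf4 and 3.27 and 2.93 in Dbf4-Zn*1. TDH3, a glyceraldehyde-3-phosphate dehydrogenase gene, followed at 2.81 and 2.81 in Dbf4 and 3.14 and 2.61 in Dbf4-Zn*1. Neither differed between genotypes by more than the replicates did. The 132 ribosomal protein genes had medians of 1.40 and 1.36 in Dbf4 and 1.39 and 1.27 in Dbf4-Zn*1, with RPS31 highest at 3.90 and 5.11 in Dbf4 and 4.01 and 3.63 in Dbf4-Zn*1, and RPS4B next at 2.25 to 3.10. RPS31 lies on chromosome 12 near the rDNA, in the stretch of high levels described above.

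Tiles of tRNA genes had medians of 1.22 and 1.12 in Dbf4 and 1.27 and 1.19 in Dbf4-Zn*1. Those of snoRNA genes had 1.27 and 1.20 in Dbf4 and 1.24 and 1.16 in Dbf4-Zn*1. WT Total was also above its mean in these tiles, at 1.09 and 1.05. Divided by WT Total, the medians were 1.04 to 1.15 for tRNA and 1.1 to 1.12 for snoRNA genes, against 0.91 to 0.93 over all tiles. SCR1, the RNA of the signal recognition particle and, like tRNAs, made by RNA polymerase III, was at 3.01 and 3.60 in Dbf4 and 2.77 and 2.56 in Dbf4-Zn*1. Heat shock genes (10) were near the genome's level, at medians of 0.95 to 1.09, with SSA2 at 1.60 to 1.85 and HSC82 at 1.86 and 1.84 in Dbf4 and at most 1.83 in Dbf4-Zn*1 the highest. Core histone genes (8), which are transcribed at the start of S phase, had medians of 1.03 to 1.30, with HHT2 highest at 1.76 and 2.08 in Dbf4 and 1.41 and 1.41 in Dbf4-Zn*1, then HHT1 at 1.13 to 1.51. Within protein-coding genes of at least 1 kb (3585), the first and the last 500 bp had medians of 0.93 to 0.96, and the 500 bp before and after the gene 0.78 to 0.84. By these medians, the 500 bp inside the gene ends were above the 500 bp outside them in all 4 libraries. WT Total was not set beside these windows.

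The same test was run over genes, on midpoints within each of 6077 annotated genes with a mean of at least 10 pairs. In Dbf4-Zn*1, 1 gene was lower (0.0165%) and 0 were higher (0%) at an adjusted p under 0.05. At an unadjusted p under 0.05, 207 genes were lower (3.41%) and 130 higher (2.14%), while DESeq2 had 0 calls and 35 genes at an unadjusted p under 0.05. The gene called was RNR1, which encodes the large subunit of ribonucleotide reductase and is induced at the G1/S transition. It had levels of 1.54 and 1.27 in Dbf4 and 0.95 and 0.84 in Dbf4-Zn*1, on 359, 174, 187 and 143 pairs, and the groups did not overlap. The log2 difference was -0.67 ± 0.12, with an edgeR adjusted p of 0.0129. The call was lost without Dbf4 replicate 1 (edgeR adjusted p 0.267), without Dbf4-Zn*1 replicate 1 (0.0611), without Dbf4-Zn*1 replicate 2 (0.539) and with the edge tile of the rDNA left out (0.0913), and without Dbf4 replicate 2 it was 2.05e-06.

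Of the 9 genes in the G1/S list, 1 was called lower and 0 higher, and 4 were lower and 0 higher at an unadjusted p under 0.05, against 3.41% and 2.14% of all genes. Their median log2 difference was -0.13, against -0.01 over all genes. Besides RNR1 these were CLN2, CLN1 and PCL1, all cyclin genes. CLN2 had levels of 1.51 and 1.47 in Dbf4 and 1.11 and 1.06 in Dbf4-Zn*1 (edgeR adjusted p 0.366). CLN1 had levels of 1.14 and 1.19 in Dbf4 and 0.91 and 0.94 in Dbf4-Zn*1. PCL1 had levels of 1.53 and 1.15 in Dbf4 and 0.80 and 1.10 in Dbf4-Zn*1. Both Dbf4-Zn*1 libraries lay below both Dbf4 libraries for 5 of the 9 genes, against 17.4% of all genes. The list was chosen with earlier results of these data known, so these shares only describe it. CLN3, which acts upstream of the others, was at 1.15 and 1.36 in Dbf4 and 1.31 and 1.43 in Dbf4-Zn*1. POL30, CLB5 and CLB6 also had overlapping groups.

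Of the 24 pheromone-induced genes, 23 were tested and BAR1 held no reads. By edgeR 0 were called, and with no adjustment 7 were higher and 0 lower at the same threshold, which 2.14% and 3.41% of all genes passed. Their median log2 difference was 0.16, against -0.01 over all genes. Both Dbf4-Zn*1 libraries lay above both Dbf4 libraries for 10 of the 23, against 16.4% of all genes (18.6% of all tiles). FIG2, an adhesin gene of mating cells, came closest to the threshold, with levels of 0.98 and 1.25 in Dbf4 and 1.47 and 1.66 in Dbf4-Zn*1 (log2 difference 0.51 ± 0.11, edgeR adjusted p 0.0556). PRM1, which acts in the fusion of mating cells, had levels of 1.14 and 1.21 in Dbf4 and 1.78 and 1.63 in Dbf4-Zn*1 (edgeR adjusted p 0.0647). FUS2, also of cell fusion, had levels of 0.82 and 1.12 in Dbf4 and 1.35 and 1.36 in Dbf4-Zn*1 (edgeR adjusted p 0.176). These 3 were named after their values were seen, and the list was chosen with earlier results of these data known.

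FIG1, STE2, FUS1 and AGA1 make up the 7, and STE2, the α-factor receptor gene, was at 1.37 and 1.45 in Dbf4 and 1.96 and 1.72 in Dbf4-Zn*1. The 2 highest genes of the list did not go this way. FUS3, the MAP kinase gene of the pathway, had levels of 3.00 and 2.30 in Dbf4 and 2.60 and 2.65 in Dbf4-Zn*1. MFA1, an a-factor gene of 111 bp, had levels of 3.31 and 3.32 in Dbf4 and 2.19 and 2.41 in Dbf4-Zn*1 on 17 to 32 pairs (edgeR adjusted p 0.953). Levels here are of DNA recovered with Dbf4, and no RNA was measured, so the state of the arrest in each culture was not tested.

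**Figure D5:**
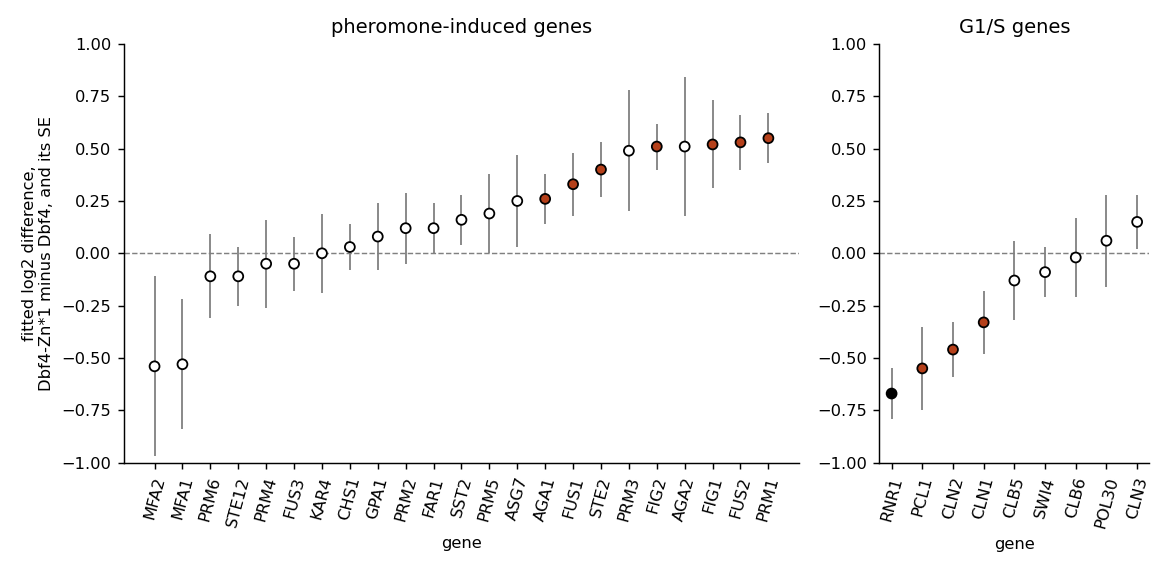
Fitted log2 difference of Dbf4-Zn*1 minus Dbf4 with its SE for the 23 pheromone-induced genes tested and the 9 G1/S genes, in order of the difference. The black point is RNR1, the gene with an edgeR adjusted p under 0.05. Red points have an unadjusted p under 0.05, 7 in the first list, all above 0, and 3 in the second, all below 0.

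Genes beside CENs were among those with the lowest p-values that were not called. DEG1 beside CEN6 (edgeR adjusted p 0.0647), DOM34 beside CEN14 (0.0651), RRP6 beside CEN15 (0.16), VPS1 beside CEN11 (0.184) and YPT7 beside CEN13 (0.184) all had lower fitted levels in Dbf4-Zn*1. GAS1, which encodes a glucanosyltransferase of the cell wall, was at 2.21 and 1.92 in Dbf4 and 1.56 and 1.27 in Dbf4-Zn*1 (edgeR adjusted p 0.0651). MCD1, the cohesin subunit gene, which is also induced at G1/S and lies left of RMD1 near CEN4, was at 1.51 and 0.92 in Dbf4 and 0.88 and 0.73 in Dbf4-Zn*1 (edgeR adjusted p 0.174). Neither passed the test, both were named for their low p-values, and MCD1 is not in the G1/S list.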

How the data were processed

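Each line of the deposited ChIP-seq files is 1 end of a read pair with its mapping quality score, from 1 to 42, and Bowtie2, SAMtools and bedtools are named in the submitters' processing notes. Versions, filters and genome build are not given in the sources used here. Outside the rDNA 99.987% to 99.993% of pairs had a place of their own. The QBU files deposited by the authors hold counts of reads per 50-bp bin. Mates within 1000 bp were joined and midpoints counted in 500-bp tiles (edgeR 4.0.16, genotype only, library size outside the rDNA, mean count of at least 10, Benjamini-Hochberg). DESeq2 1.42.0 served as an alternative. Levels of genes are per 500 bp. On 23885 simulated tiles with 200 changed, the fit recovered 0.5% of 1.5-fold, 53% of 2-fold and 96.5% of 4-fold changes, so changes under 2-fold are mostly missed at this depth. With 2 libraries against 2 an exact two-sided permutation test cannot go below 0.33, so region levels carry no test. Genes were placed by a RefSeq table of R64 names, moved by 1982 bp on chromosome 15 right of RGA1. Fragment coverage fitted the unshifted table in 175 of 176 windows of 60 kb on the other chromosomes. Origins are bins of the mean of 20 IP profiles that reach 2 times the mean and are highest within 5 kb. Regions named are the 16 CEN tiles, the 10 highest regions beyond 2 kb from a CEN, the called regions (tiles within 1 kb merged), the called genes, and of each list the members called and the 2 highest. Members and lists were chosen with earlier results of these data known. Alternatives tried were TMM scaling, no filter, a replicate block, leaving out each library, single positions, a mapping quality of 30, shifted or 1000-bp tiles and other CEN windows, and, added after the data were seen, leaving out the edge tile of the rDNA and 2-kb windows. R was version 4.3.3 and Python 3.11.15. No DNA or protein sequence is printed because none was at hand.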

Additional observations from a re-analysis of the deposited data

How the results depend on the processing

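The median log2 difference of the 16 CEN tiles (-0.87) lay between -0.89 and -0.80 under the other scalings, counting rules and tile places, and between -0.98 and -0.67 with 1 library left out. Counts of calls moved more. DESeq2 called 0 tiles lower, 0 tiles higher, 0 CEN tiles and 0 genes. With 1 library left out, 0 to 17 tiles were lower (15 with all), 0 to 2 higher (3), 0 to 7 CEN tiles lower (8), 0 to 7 genes lower (1) and 0 to 3 genes higher (0), and the difference at CEN16 lay between -0.57 and 0.02, above 0 only without Dbf4 replicate 1. With no filter 1 gene, FIG2, was higher. At a mapping quality of at least 30, 1 tile was higher, 3 genes lower (RNR1, GAS1 and DOM34) and 2 genes higher (FIG2 and PRM1). With tiles shifted by 250 bp, 0 tiles were higher. With the edge tile of the rDNA left out, 0 genes were lower. The causes were not tested. Of 232 refits of the called regions and RNR1, 134 kept the call and 98 lost it. Of 104 refits of the CEN tiles not called, 4 gained a call and 1 changed sign. Tiles hold 23 to 40 pairs at the median, which limits calls to large changes.

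The replicate numbers are shared by both genotypes, but no label says that they mark a common culture or day, and the deviations of same-numbered libraries did not correlate (r 0.00 over 23884 tiles). With the replicate block, 15 tiles were lower, 2 higher, 8 CEN tiles lower and 0 genes lower (RNR1 at an edgeR adjusted p of 0.962), with a median CEN difference of -0.88.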
